A study of Homo sapiens with 16 samples.

Results

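Of the 19077 entries of a count table, 10 genes of the Notch pathway were followed across 16 libraries of RNA recovered with RISC (the RNA-induced silencing complex, which holds a miRNA and the transcripts it pairs with) from HEK 293 cells. They were chosen by symbol with earlier results of these data known, so calls among them may not be independent of the choice. The members are the ligands JAG1, JAG2, DLL1 and DLL3 and the receptors NOTCH1, NOTCH2 and NOTCH3. With them are the gamma-secretase subunit NCSTN, the coactivator MAML1 and the target gene HES1. All 10 were present in the table and passed the filter on low counts in every comparison. HEK 293 is a human embryonic kidney cell line with expression features of neural crest. The method, RISC-trap, uses a dominant-negative form of the RISC scaffold protein TNRC6A, also called GW182, to hold transcripts that a transfected miRNA has bound, so a transcript's level in a library depends on its abundance and on its recovery with RISC, which cannot be told apart here. The groups were mir124-3p with 3 libraries labelled Illumina, mir124-3p with 1 library labelled Solid, and 2 libraries each of mir1260a-5p, mir1301-3p, mir550-3p, mir1180-3p, mir3613-5p and mir1271-5p. All 16 share the cell line and the trap, no group carries another treatment in the labels, and no library without a miRNA is among them. A Solid kit is named in the labels of all 16, and no sequencer in those of the 12 libraries of the 6 miRNAs. Each miRNA was therefore set against the other miRNAs, and a difference is one between miRNAs and not one from untreated cells.

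Notch signalling runs between neighbouring cells. A ligand of the Jagged or Delta-like family on one cell binds a Notch receptor on the next, gamma-secretase cuts the bound receptor, and the freed intracellular domain enters the nucleus, where it joins the DNA-binding protein RBPJ and a Mastermind-like coactivator to switch on genes such as HES1. A miRNA guides RISC mainly by pairing of its seed, bases 2 to 8, with sites that lie mostly in the 3' untranslated regions of transcripts.

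The mature sequences of the 6 miRNAs with 2 libraries each are shown because each defines 1 of the groups compared, and the seed, in capitals, is the stretch through which RISC mainly recognises its transcripts. They are from RefSeq, written 5' to 3', and the 6 seeds all differ.
mir1180-3p: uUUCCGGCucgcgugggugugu
mir1260a-5p: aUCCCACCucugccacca
mir1271-5p: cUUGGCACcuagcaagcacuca
mir1301-3p: uUGCAGCUgccugggagugacuuc
mir3613-5p: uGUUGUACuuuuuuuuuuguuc
mir550-3p: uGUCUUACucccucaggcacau
For mir1260a-5p the RefSeq entry is hsa-miR-1260a, which names no arm, and for mir550-3p it is hsa-miR-550a-3p, which has 2 loci. The mature mir1260a-5p, the miRNA to which the JAG2 result below belongs, has 18 bases and lies on the forward strand at chr14:77266231-77266248 of GRCh38.p14, in the gene MIR1260A. No target site in JAG2, MAML1 or NCSTN was searched for here.

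Total counts lay between 7612758 and 26527365 per library, and 3 counts, taken as the floor, correspond to 0.113 to 0.394 CPM (counts scaled to 1000000 per library). The 10 genes together took 0.0157% to 0.0427% of a library's counts. TNRC6A, the gene from which the trap protein derives, took 5.11% of the counts in the Solid library of mir124-3p, 4.003%, 1.07% and 3.97% in Illumina replicates 1, 2 and 3, and 0.665% to 1.49% in the 12 libraries of the other 6 miRNAs. NEFL at 256 to 719 CPM and VIM at 521 to 1088 CPM, both typical of HEK 293 cells, were present in all 16 libraries. The summed level of 6 fibroblast and mesenchyme markers, all 6 in the table, was 66.3 and 194 CPM in the mir1301-3p libraries, and the lowest of the 12 libraries was mir1260a-5p replicate 1 at 8.82 CPM. The descriptions of both mir550-3p libraries and of mir1301-3p replicate 2 contain the letters bio, and those of the Illumina libraries are codes beginning with L, which are not explained. Beyond this the labels do not say whether replicates came from separate cultures. The p-values therefore measure the spread between these libraries, which may be technical.

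Among the 6 miRNAs with 2 libraries each, JAG2 was the member that differed. JAG2 encodes Jagged2, a membrane ligand of the Notch receptors. It was at 61.6 and 176 CPM in the mir1260a-5p libraries, while the 10 libraries of the other 5 miRNAs lay between 7.90 and 24.6 CPM with a median of 11.9 CPM. Both mir1260a-5p libraries were above all 10 others, a separation whose share over all genes was not counted. These levels rest on 719 and 1980 counts, with exact 95% Poisson intervals of 57.2 to 66.2 CPM and 168 to 184 CPM that cover counting error only, so the gap between the 2 libraries is larger than counting error. The mean was 119 ± 81.0 CPM (SD, n = 2) with mir1260a-5p and 13.96 ± 5.09 CPM (SD, n = 10) with the other 5 miRNAs. Over all genes tested, as deviations from the mean of the 6 miRNAs, the 2 mir1260a-5p libraries correlated at r = -0.12. By that measure they did not resemble each other.

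In edgeR's quasi-likelihood test the log2 fold change of JAG2 with mir1260a-5p against the mean of the other 5 miRNAs was 3.03 ± 0.31 (SE), with a Benjamini-Hochberg adjusted p of 8.9e-05 over 17658 genes. Here and below a gene is called where that adjusted p is under 0.05. A gene not called may still differ, since in simulated data most 2-fold changes were missed. Fold changes come from the fit, which scales libraries by the trimmed mean of M values, so they can differ from ratios of mean CPM. JAG2 was placed 7 of the 17658 genes by fold change and 4 by p. Of all genes tested, 0.215% were called with mir1260a-5p, and of the 10 Notch genes JAG2 alone was. Without replicate 2 of mir1260a-5p the log2 fold change was 2.02 (adjusted p = 0.0277), and without replicate 1 it was 3.56. The log2 fold change, and with it the fold itself, therefore depended strongly on which library was used. Each of these fits rests on a single mir1260a-5p library. The call held both ways.

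All other groups were well below mir1260a-5p in JAG2. In falling order, JAG2 was at 23.8 CPM in the Solid library of mir124-3p, 21.0 ± 5.09 CPM with mir3613-5p (SD, n = 2) and 19.1 ± 3.90 CPM in the Illumina libraries of mir124-3p (SD, n = 3). There followed mir1301-3p at 14.6 ± 5.04, mir1271-5p at 12.1 ± 5.98, mir550-3p at 11.9 ± 1.34 and mir1180-3p at 10.2 ± 0.63 CPM (SD, n = 2 each). The library values of neighbours in this order overlapped, except that both mir550-3p libraries (12.8 and 10.9 CPM) were just above both of mir1180-3p (10.6 and 9.74 CPM). A high level in mir1260a-5p lowers the fold change of every miRNA set against it, so the comparison was repeated with mir1260a-5p left out. JAG2 then had log2 fold changes of -0.29 with mir1180-3p, -0.17 with mir1271-5p, -0.23 with mir1301-3p, 0.73 with mir3613-5p and -0.04 with mir550-3p, none of them called. With mir1260a-5p kept in, JAG2 with mir1180-3p had a log2 fold change of -1.01 and an unadjusted p of 0.0250 (edgeR adjusted p = 0.284).

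The F test over the 6 miRNAs together called JAG2 (F = 19.0, edgeR adjusted p = 0.000483) and none of the other 9 genes, of which 0 had an unadjusted p under 0.05. Of all genes tested, 5.72% were called there. DESeq2 called the same member, JAG2, and no other.

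Over the 12 libraries, 11621 genes with a mean of at least 5 CPM were ranked by the Pearson correlation of their log2 CPM with that of JAG2. The 3 closest were CHCHD10 (r = 0.97), GLTSCR2, now named NOP53 (r = 0.94), and C22orf15 (r = 0.94). CHCHD10 encodes a mitochondrial protein and NOP53 a nucleolar protein of ribosome biogenesis. CHCHD10 was at 452 and 868 CPM with mir1260a-5p and between 141 and 357 CPM in the other 10 libraries. GLTSCR2 was at 336 and 838 CPM with mir1260a-5p and between 61.7 and 241 CPM in the others. Like JAG2, both were higher in replicate 2 than in replicate 1 of mir1260a-5p. Over the 10 libraries without mir1260a-5p, r with JAG2 was 0.91 for CHCHD10, 0.82 for GLTSCR2 and 0.73 for C22orf15. CHCHD10 and C22orf15 are neighbours on chromosome 22, and all these values share libraries and depth, so they are given as a description.

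**Figure D1:**
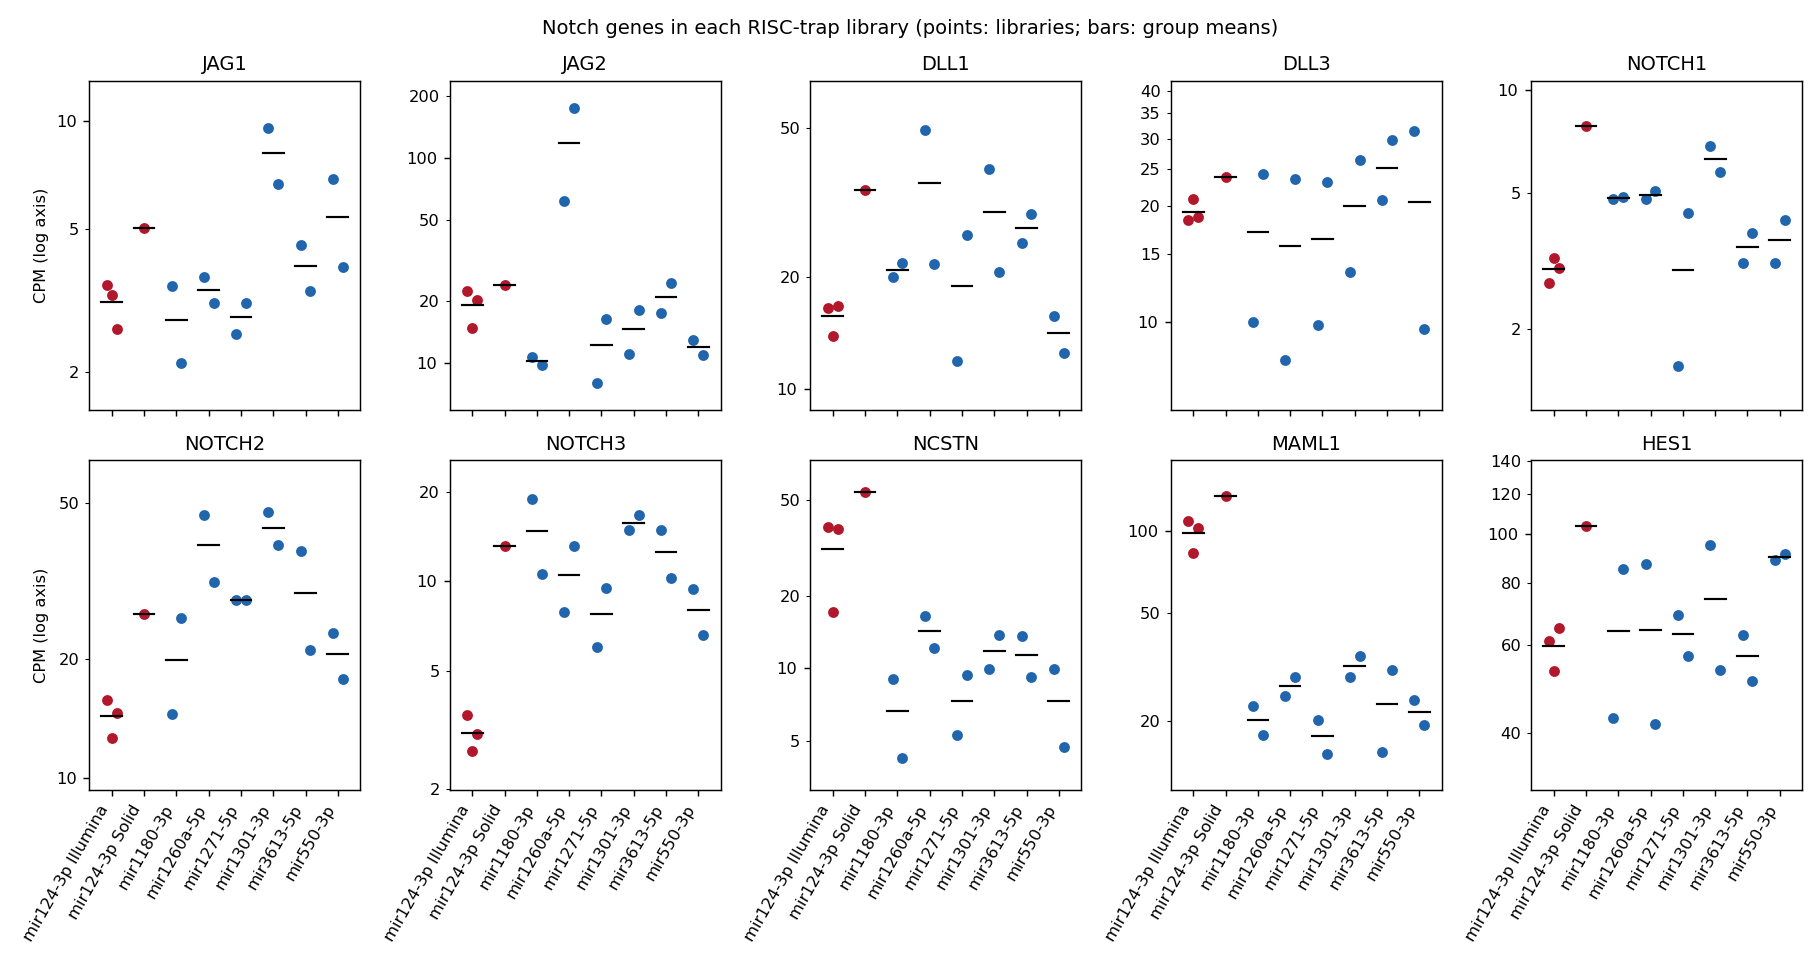
CPM (log axis, scaled per gene) of the 10 Notch genes in each library, by miRNA, with mir124-3p in red and the other 6 miRNAs in blue; points are libraries and bars are group means. JAG2 stands apart at 61.6 and 176 CPM with mir1260a-5p, and MAML1 and NCSTN are highest in the mir124-3p libraries.

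The other Jagged ligand, JAG1, did not follow JAG2. It was at 3.68 and 3.11 CPM with mir1260a-5p. Its highest values were 9.59 and 6.68 CPM with mir1301-3p, against 2.12 to 6.90 CPM with a median of 3.42 CPM in the 10 libraries of the other 5 miRNAs. The groups overlapped by 1 library, mir550-3p replicate 1. The log2 fold change of JAG1 with mir1301-3p was 0.83 ± 0.40 (SE), not called (edgeR adjusted p = 0.139), in a comparison in which 15.9% of all genes were called. With upper-quartile scaling, which moved the median of all genes by 0.40, it was 1.24 (adjusted p = 0.0313) and would be called. The mir1301-3p libraries with the high JAG1 also held high summed fibroblast and mesenchyme markers, 66.3 and 194 CPM, and endothelium markers, 24.4 and 28.5 CPM. Blood markers were highest there too, at 13.4 and 16.4 CPM, and neuron and glia markers were at 108 and 62.2 CPM, against 57.7 to 98.3 CPM in the other 10 libraries. JAG1 was higher in replicate 1 and the fibroblast and mesenchyme sum in replicate 2. The part of these markers in the JAG1 level was not tested. JAG1 rested on 20 to 100 counts per library of the 12.

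DLL1, a Delta-like ligand, ranged over the 12 libraries between 11.9 and 49.4 CPM. Both ends of that range lay beside a very different partner, since mir1260a-5p had 49.4 and 21.6 CPM and mir1271-5p had 11.9 and 25.9 CPM. With mir550-3p it was at 15.7 and 12.5 CPM, against a median of 23.1 CPM in the other 10 libraries, and its log2 fold change of -0.67 ± 0.37 (SE) was not called (edgeR adjusted p = 0.382). In the RefSeq annotation the span of DLL1 overlaps that of FAM120B, and no source used here says whether strand was used in counting, so its counts are uncertain where the 2 genes overlap.

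DLL3, a divergent Delta-like protein known in mice for somite formation, was the member whose replicates were furthest apart. Its 2 libraries differed by more than 2-fold for 4 of the 6 miRNAs, with a median ratio of 2.38 and a highest of 3.28. Replicates of mir1180-3p gave 10.02 and 24.2 CPM, those of mir1260a-5p 7.96 and 23.6 CPM, those of mir1271-5p 9.85 and 23.1 CPM, and those of mir550-3p 31.4 and 9.57 CPM. The median ratio over genes at 2 to 100 CPM was 1.41. The 3 Illumina libraries of mir124-3p, by contrast, lay between 18.5 and 20.9 CPM. The largest log2 fold change of DLL3, 0.56 ± 0.47 (SE) with mir3613-5p, was not called (edgeR adjusted p = 0.601).

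None of the 3 receptors was called with any of the 6 miRNAs or in the Solid library of mir124-3p. NOTCH1, the receptor best known from T-cell development and leukaemia, was between 1.56 and 6.83 CPM on 28 to 67 counts per library of the 12. Both mir1301-3p libraries, at 6.83 and 5.74 CPM, were above the highest of the other 10, 5.07 CPM. The share of all genes with such a separation was not counted. The log2 fold change of NOTCH1 was 0.36 and not called (edgeR adjusted p = 0.519), where 15.9% of all genes were called. Among the 6 miRNAs and the Solid library of mir124-3p, its largest log2 fold change, 0.86 ± 0.50 (SE), was in the Solid library, at 7.86 CPM, the highest of all libraries (edgeR adjusted p = 0.313). The 3 Illumina libraries of the same miRNA lay at 2.99 ± 0.25 CPM (SD, n = 3), and with them in place of the Solid library the log2 fold change was -0.10.

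NOTCH2 was between 14.5 and 47.4 CPM in the 12 libraries. It was lowest with mir1180-3p, at 14.5 and 25.4 CPM, against a median of 29.9 CPM in the other 10, and the groups overlapped. That log2 fold change, -0.56 ± 0.34 (SE), was not called (edgeR adjusted p = 0.497). NOTCH2 counts are uncertain, because the near-identical paralog NOTCH2NL, itself at 10.9 to 53.5 CPM, could share its reads.

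NOTCH3, a receptor known from vascular smooth muscle, was between 6.01 and 18.9 CPM in the 12 libraries. Its values with mir1180-3p, where its fold change was largest among the 6 miRNAs and the Solid library, were 18.9 and 10.6 CPM, against a median of 9.88 CPM in the other 10 libraries. The log2 fold change of 0.60 ± 0.36 (SE) was not called (edgeR adjusted p = 0.490).

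HES1, the transcriptional repressor that Notch induces, was between 41.7 and 94.97 CPM in the 12 libraries, a range of 2.28-fold and the narrowest of the 10 genes. With mir550-3p both libraries were high, at 88.7 and 91.2 CPM, against a median of 60.03 CPM in the other 10 libraries. The highest of those, 94.97 CPM in mir1301-3p replicate 1, was above both. The log2 fold change of HES1 with mir550-3p was 0.66 ± 0.32 (SE) and was not called (edgeR adjusted p = 0.309). With mir1260a-5p, where JAG2 was high, HES1 was at 87.2 and 41.7 CPM, with a log2 fold change of -0.24.

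Besides JAG2 with mir1260a-5p, edgeR and DESeq2 each called 0 of the 10 genes with the remaining miRNAs mir1301-3p, mir1180-3p, mir550-3p, mir1271-5p and mir3613-5p. Over all genes, edgeR called 2.07% with mir1180-3p, 0.606% with mir1271-5p, 15.9% with mir1301-3p, 0.0906% with mir3613-5p and 1.51% with mir550-3p. JAG2 with mir1180-3p was the 1 member with an unadjusted p under 0.05 in these 5 comparisons. The median log2 fold change of the 10 genes was -0.12 with mir1180-3p, 0.14 with mir1260a-5p, -0.31 with mir1271-5p, 0.14 with mir1301-3p, 0.15 with mir3613-5p and -0.15 with mir550-3p. The medians of all genes tested lay between -0.07 and 0.05 in these comparisons.

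**Figure D2:**
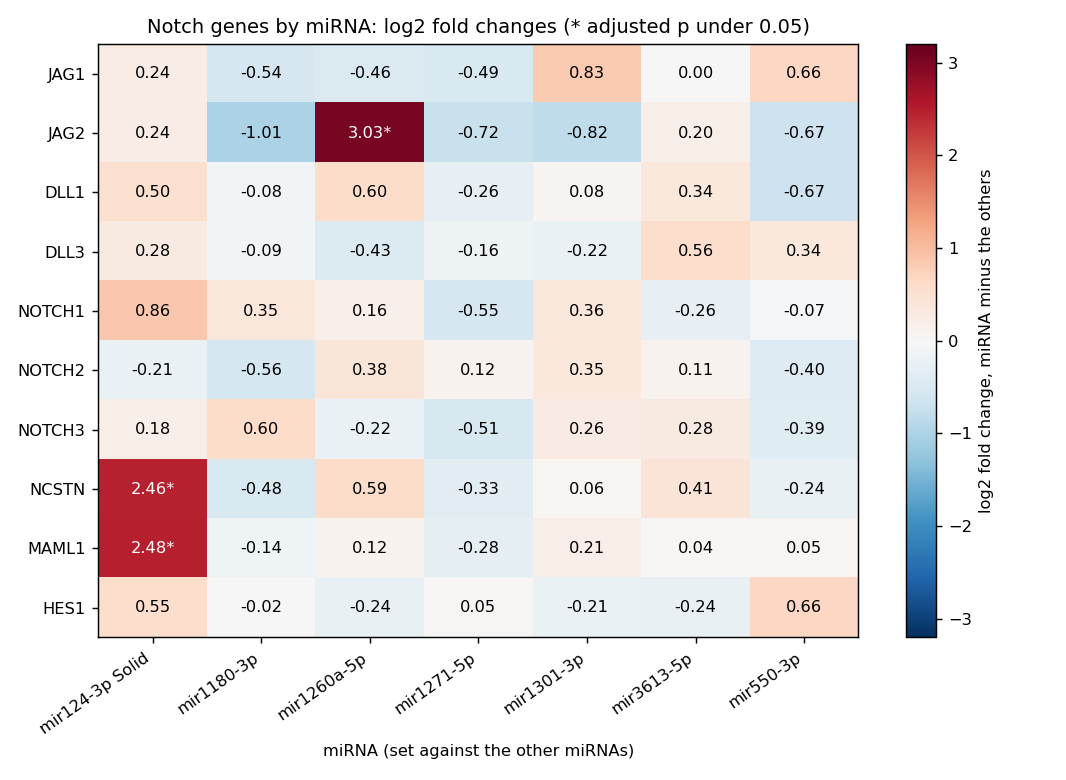
Log2 fold change from the edgeR fit of each Notch gene (rows) with each miRNA against the other miRNAs (columns), coloured by sign and size; an asterisk marks an adjusted p under 0.05. The 3 marked values are JAG2 with mir1260a-5p (3.03) and MAML1 (2.48) and NCSTN (2.46) in the Solid library of mir124-3p.

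With mir124-3p, a miRNA of neurons, the coactivator MAML1 and the gamma-secretase subunit NCSTN were higher than with any of the other 6 miRNAs. MAML1 binds the Notch intracellular domain and RBPJ on DNA and recruits histone acetyltransferases. It was at 135 CPM in the Solid library, while the 12 libraries of the other miRNAs lay between 15.1 and 34.7 CPM with a median of 23.3 CPM. The 3 Illumina libraries gave 109, 83.1 and 103 CPM. All 4 libraries of mir124-3p were thus above all 12 others, but how common such a separation is over all genes was not counted. The log2 fold change of MAML1 in the Solid library against the mean of the 6 miRNAs was 2.48 ± 0.35 (SE, edgeR adjusted p = 0.00023). The Solid group has 1 library, which the fit assumes to vary like the other groups. No sequencer is named in the labels of the 12 others. Platform, library and miRNA therefore cannot be told apart in this comparison.

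NCSTN encodes nicastrin, a membrane glycoprotein that helps bring substrates to gamma-secretase. It was at 54.2 CPM in the Solid library, against 4.23 to 16.5 CPM with a median of 9.65 CPM in the 12 libraries of the other miRNAs. In Illumina replicates 1, 2 and 3 it was at 38.7, 17.1 and 37.8 CPM. Replicate 2, with the least TNRC6A of the mir124-3p libraries at 1.07% of counts, was the lowest of the 4 for both NCSTN and MAML1, and still above the highest of the 12 others, for NCSTN by less than the counting error (95% Poisson intervals of 15.4 to 19.0 CPM for replicate 2 and 14.3 to 19.0 CPM for mir1260a-5p replicate 1); the part of TNRC6A in these levels was not tested. The log2 fold change of NCSTN in the Solid library was 2.46 ± 0.43 (SE, edgeR adjusted p = 0.00145). Of all genes tested, 8.89% were called in the Solid library, and 2 of the 10 Notch genes were. By fold change MAML1 was placed 130 and NCSTN 134 of 18135 genes.

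With the Illumina libraries in place of the Solid one, a comparison added after the data had been seen, the log2 fold changes against the 6 miRNAs were 2.45 ± 0.20 for MAML1 (SE, adjusted p = 4.8e-09) and 2.09 ± 0.27 for NCSTN (SE, adjusted p = 1.8e-06). In that comparison 69% of all genes were called, and platform and miRNA cannot be told apart. Illumina replicates 1 and 3 were much closer to each other (chi-square per degree of freedom of 6.45 over genes) than either was to replicate 2 (77.0 and 87.7) or than the replicates of the other miRNAs were (34.4 to 79.1). They still differed by more than sampling noise and were counted as separate libraries, so if they are not independent the errors here are too small. NOTCH2 (-0.64, adjusted p = 0.0319) and NOTCH3 (-1.47, adjusted p = 0.00042) were called lower there, and the other 6 members were not called.

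The other members in the Solid library of mir124-3p had smaller fold changes, and none was called. HES1 was at 104 CPM there, above the highest of the 12 others, 94.97 CPM, with a log2 fold change of 0.55 (edgeR adjusted p = 0.449). DLL1 was at 34.0 CPM, DLL3 at 23.8 CPM, NOTCH2 at 26.1 CPM, NOTCH3 at 13.2 CPM and JAG1 at 5.06 CPM, all within the range of the 12. In all, 9 of the 10 log2 fold changes in this single library were positive, with a median of 0.39. The median of all genes tested was -0.12, and the share of positive changes over all genes was not counted. With the Illumina libraries in its place the medians were 0.09 for the 10 genes and -0.51 for all genes tested. JAG1 (-0.01), DLL1 (-0.19), NOTCH1 (-0.10), NOTCH2 (-0.64) and NOTCH3 (-1.47) were then negative, and the other members positive.

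The Illumina and the Solid libraries of mir124-3p differed past the threshold in NOTCH3 alone among the 10 genes. It was at 3.54, 2.69 and 3.05 CPM in the Illumina libraries, against 13.2 CPM in the Solid library. The log2 fold change was -1.77 ± 0.48 (SE, edgeR adjusted p = 0.00932), in a comparison in which 21.9% of all genes were called and whose median over all genes was -0.39. Without Illumina replicate 2 it was -1.44 and no longer called (adjusted p = 0.0921). For MAML1 and NCSTN the same comparison gave -0.14 ± 0.40 and -0.50 ± 0.52 (SE), neither of them called. The labels do not say whether the same RNA was sequenced on both platforms, so platform and RNA preparation cannot be told apart.

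The rest of the pathway was followed in 59 further genes in 7 lists, all of which were in the table and tested. In the Solid library of mir124-3p, 6 of the 59 were called higher and 0 lower, a share near the 8.89% called over all genes. Of the 8 genes of gamma-secretase and receptor cleavage, 2 were called higher, both of them subunits of the complex that holds NCSTN. PSEN2, a presenilin and so a catalytic subunit, was at 39.5 CPM in the Solid library and at 9.72 ± 4.32 CPM in the 12 others (SD), with a log2 fold change of 2.03 (edgeR adjusted p = 0.0131). APH1A, a scaffold subunit, was at 106 CPM in the Solid library and at 31.5 ± 18.8 CPM in the others, with a highest of 87.7 CPM, and its log2 fold change was 1.78 (adjusted p = 0.0182). The median log2 fold change of the 8 genes was 0.92, and that of all genes tested was -0.12.

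The other 4 genes called higher in the Solid library came from 3 lists. POFUT1, the enzyme that adds O-linked fucose to Notch receptors, was the 1 of 5 glycosyltransferases called, at 100.1 CPM against 27.9 ± 7.83 CPM (SD, n = 12), with a log2 fold change of 1.80. DTX2, a Deltex ubiquitin ligase, was the 1 of 13 ubiquitin ligases and endocytic regulators called, at 26.2 CPM against 5.08 ± 1.86 CPM, with a log2 fold change of 2.37. Of the 19 genes of the nuclear complex and corepressors, the histone deacetylase HDAC1 (log2 fold change 1.55) and the Groucho-family corepressor TLE1 (1.84) were called. MAML1's paralogs did not follow it: MAML2 was at 1.61 CPM and MAML3 at 8.11 CPM in the Solid library, against 1.78 to 9.46 CPM and 4.97 to 19.4 CPM in the 12 others. The genes called were a part of their lists, and 0 of 9 target genes, 0 of 3 other ligands and 0 of 2 other receptors were called, with 0, 1 and 0 of them at an unadjusted p under 0.05. All 6 were also called, and higher, in the Illumina libraries against the 6 miRNAs, with log2 fold changes between 1.51 and 2.78, but 69% of all genes were called in that comparison.

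**Figure D3:**
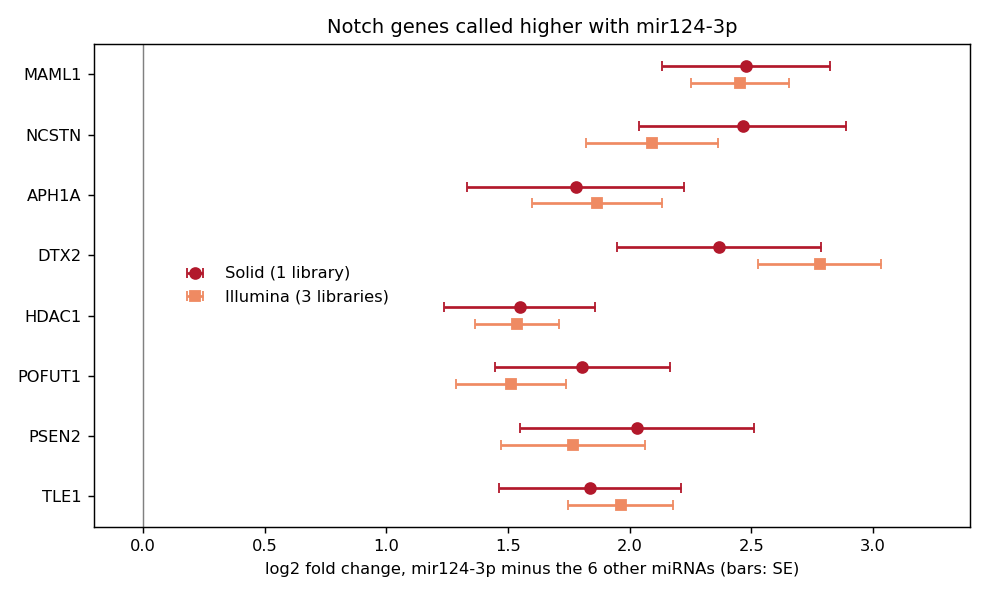
Log2 fold change (points, with SE bars) of the 8 Notch genes called higher in the Solid library of mir124-3p, against the 6 other miRNAs, in the Solid library and, in place of it, in the 3 Illumina libraries. MAML1 and NCSTN lie at 2.48 and 2.46 in the Solid library and at 2.45 and 2.09 in the Illumina libraries.

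With mir1260a-5p, where JAG2 was called, 0 of the 59 other genes were called by edgeR or by DESeq2, and 2 had an unadjusted p under 0.05. JAG2 was thus the 1 gene called with this miRNA among all those followed. With mir1271-5p and mir3613-5p edgeR and DESeq2 called 0 of the 59, with 6 and 7 at an unadjusted p under 0.05. With mir1180-3p edgeR called 0 of the 59, with 10 at an unadjusted p under 0.05, and DESeq2 called 2.

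With mir1301-3p, where 0 of the 10 members were called, 8 of the 59 were, 4 higher and 4 lower, a share no larger than the 15.9% called over all genes. SPEN, a corepressor that binds RBPJ, was at 572 and 436 CPM against 133 ± 35.8 CPM (SD, n = 10), with a log2 fold change of 1.60. The corepressor TLE4 (log2 fold change 1.24), the Fringe glycosyltransferase MFNG (1.98) and the non-canonical ligand DLK1 (3.42) were the others called higher. DLK1 and MFNG were scarce, at 3.42 and 14.3 CPM and at 2.63 and 6.09 CPM with mir1301-3p, against 0.778 ± 0.543 and 0.985 ± 0.566 CPM in the other 10 libraries. The corepressor CTBP1 (-1.14), the target genes HES6 (-1.15) and NRARP (-0.84) and the gamma-secretase subunit PSENEN (-0.99) were called lower. The calls depended on single libraries: without mir1301-3p replicate 1, SPEN (1.44) and TLE4 (1.01) were not called, without replicate 2, DLK1 (1.97) and MFNG (1.17) were not, and the 4 lower genes were lost without either. Of 18 alternatives, NRARP was not called in 10 and PSENEN in 8, also when single libraries of other miRNAs were left out, and CTBP1 and HES6 were not called in 3 each. Where they were not called, log2 fold changes ran from -0.97 to -0.43 for NRARP, -1.26 to -0.61 for PSENEN, -1.42 to -0.76 for CTBP1 and -1.16 to -0.76 for HES6. The fibroblast and mesenchyme markers were also high in these 2 libraries, at 66.3 and 194 CPM, and their part was not tested. Like the markers, DLK1, MFNG, CTBP1 and PSENEN had the higher CPM in replicate 2 of mir1301-3p. SPEN, TLE4, HES6 and NRARP had it in replicate 1.

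With mir550-3p, 2 of the 59 were called, both higher, while 1.51% of all genes were called. CTBP1 was at 203 and 199 CPM against 107 ± 34.6 CPM (SD, n = 10), with a log2 fold change of 1.13, and HES6 was at 62.0 and 47.2 CPM against 30.0 ± 10.6 CPM, with 1.12. The 2 miRNAs mir550-3p and mir1301-3p are each part of the other's comparison, and without mir1301-3p the log2 fold changes with mir550-3p were 0.94 and 0.93 and not called. HES1, the target gene among the 10 members, had 0.66 with mir550-3p, also not called. The F test over the 6 miRNAs called 5 of the 59 other genes and 5.72% of all genes. Without mir1301-3p it called 0 of the 59, and over all genes 381 in place of 1010.

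Between the Illumina and Solid libraries of mir124-3p, 4 of the 59 genes were called, all lower, a smaller share than the 21.9% called over all genes, whose median log2 fold change was -0.39. They are named after their values were seen. NRARP was at 75.0 CPM in the Illumina libraries and 197 CPM in the Solid library. MAML2 and DTX1 were at 0.214 and 0.202 CPM in the Illumina libraries and at 1.61 and 1.204 CPM in the Solid library. DLK1 had 0 counts in all 3 Illumina libraries and 0.321 CPM in the Solid library.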

How the data were processed

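RNA recovered by RISC-trap from HEK 293 cells was sequenced in 16 libraries. The deposited file holds whole-number counts for each RefSeq gene entry, not normalised by the authors. TopHat2 and hg19 are named in the submitters' processing notes; how the reads were counted, and on which annotation, is not given there. Of the 19077 entries, 18560 matched a current RefSeq symbol. The members and the gene lists were chosen with earlier results of these data known.

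Two-sided quasi-likelihood F tests (robust) on group means were run with edgeR 4.0.16 in R 4.3.3 after filterByExpr and TMM scaling (trimmed mean of M values), with Benjamini-Hochberg adjustment over all genes tested and a threshold of 0.05. The 6 miRNAs with 2 libraries each were fitted together over 12 libraries, each against the mean of the other 5; the Solid library of mir124-3p was added for its comparison with the 6, and the Illumina libraries for the comparison of platforms. The common biological coefficient of variation was 0.350, 0.350 and 0.317 in these fits. CPM are counts scaled to 1000000 per library, without further scaling, and their precision is limited by total counts of 7612758 to 26527365. All members were named, each with a test in its comparison of largest fold change and wherever called. Of the other Notch genes those called with a miRNA were named, and for JAG2 the 3 genes of highest correlation of log2 CPM (prior count 2). Alternatives were upper-quartile and RLE scaling, no filter on low counts, DESeq2 1.42.0, a replicate block, references without mir1301-3p, and leaving out each library; references without mir1260a-5p and Illumina libraries in place of Solid were added after seeing the data. The steps were tested on simulated data. The numbers 1 and 2 of the libraries were not taken to pair them. Mature miRNA sequences were taken from RefSeq on GRCh38.p14; because the files are on hg19, its gene positions were used only for which genes overlap or neighbour each other.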

Additional observations from a re-analysis of the deposited data

How the results depend on the processing

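The calls of JAG2 with mir1260a-5p and of MAML1 and NCSTN in the Solid library of mir124-3p, and those of the 6 further Notch genes called in that library, kept their direction and their side of the threshold in every alternative run. The deviations of same-numbered libraries of different miRNAs correlated at r from -0.14 to 0.36 over 15 pairs, 6 of them over 0.1. Of the 12 libraries, 6 correlated best with a library of the same number and 5 with their own replicate. Own-replicate r ran from -0.13 with mir1271-5p to 0.60 with mir1301-3p, and was -0.12 with mir1260a-5p. The numbers were therefore not taken as pairs. In a fit with the replicate block the log2 fold changes were 2.92 for JAG2, 2.48 for MAML1 and 2.29 for NCSTN, and the numbers of members called were unchanged. Members called changed in 3 settings: 1, JAG1, with mir1301-3p under upper-quartile scaling, against 0; 4 with the Illumina libraries in place of the Solid library, against 2, and there NOTCH1 turned to -0.10; and 0 to 1 in the platform comparison when each Illumina library was left out, with 0 without replicate 2. The cause of these changes was not tested. Among the 59 other genes, upper-quartile scaling called 13 with mir1301-3p against 8 and 0 with mir550-3p against 2, and DESeq2 called 10 in the Solid library against 6 and 12 over the 6 miRNAs against 5; 33 were called with the Illumina libraries in place of the Solid one. Leaving out either mir1301-3p library left 2 of the 8 calls with that miRNA, and leaving out single libraries left 0 to 1 of the 2 calls with mir550-3p in 8 of the 12 fits. Over all genes, DESeq2 called 691 with mir1180-3p against 366, 64 with mir1260a-5p against 38, 135 with mir3613-5p against 16, 863 with mir550-3p against 266, 2659 in the Solid library against 1613 and 3362 over the 6 miRNAs against 1010. Upper-quartile scaling called 4438 with mir1301-3p against 2815, 50 with mir1271-5p against 107, 9 with mir3613-5p against 16 and 1663 over the 6 miRNAs. Leaving out 1 library gave 114 to 4509 calls with mir1301-3p, 9 to 616 with mir550-3p, 35 to 174 with mir1271-5p, 8 to 39 with mir3613-5p and 360 to 1454 over the 6 miRNAs, and as few as 170 with mir1180-3p and 19 with mir1260a-5p. The median over all genes shifted under upper-quartile scaling by 0.16 with mir1180-3p, -0.24 with mir1271-5p, 0.40 with mir1301-3p, -0.19 with mir3613-5p, -0.12 with mir550-3p and -0.18 in the Solid library. Depth limits JAG1 and NOTCH1 most, with 20 to 100 and 28 to 67 counts per library.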
